A study of Mus musculus with 2 samples.

Results

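The replication-dependent histone genes were taken as the 53 genes whose symbol in the deposited gene list starts with Hist1h, Hist2h, Hist3h or Hist4h and that had at least 100 UMIs over both libraries, of 69 gene identifiers with such a symbol and 27998 identifiers in all. A UMI (unique molecular identifier) stands for 1 captured RNA molecule. The genes comprised 5 of the linker histone H1 and 13, 15, 11 and 9 of the core histones H2A, H2B, H3 and H4. The 16 identifiers under the minimum held between 0 and 92 UMIs. Hist1h4k, at 105 UMIs, was the last gene inside the limit and Hist1h4j, at 92, the first outside it.

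The study compared young and aged C57BL/6 mice by their primary neural stem cells, taken from the subventricular zone, a layer of dividing cells beside the lateral ventricles of the brain. The young mice were 2 months old and the aged mice 15 to 18 months old. For each age, tissue of 5 mice was pooled and dissociated, and the cells were held in proliferation medium before capture, so they are cultured cells; the labels give no genotype or treatment besides. Each age had 1 library, so no difference between ages has a replicate check, no p-value was computed, and every interval below is a 95% interval that covers counting error only.

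The young library held 97774963 UMIs in 5151 barcodes and the aged library 101666604 in 4731. Cells were kept with at least 1000 genes and at most 10% of UMIs from mitochondrially encoded genes, which left 2650 young and 2537 aged cells with medians of 22987 and 23780 UMIs. The libraries shared 4 barcodes, of which 0 were among the kept cells. All 13 neural stem and progenitor markers were detected in both libraries, among them Sox2 at 263 and 289 CPM (counts per 1000000 UMIs of the cells summed) and Nes at 675 and 639 CPM. The 8 microglia markers summed to 1.63 and 0.776 CPM, the 8 endothelial markers to 1.67 and 1.47 CPM and the 6 erythroid markers to 0.152 and 0.281 CPM, with the defining genes C1qa, Cldn5 and Hbb-bs at 0 in both. Markers at 0 numbered 6 of 8 young and 3 of 8 aged for microglia, 3 and 2 of 8 for endothelium and 3 of 6 in both for erythroid cells. Higher sums were found for the 8 astrocyte markers (374 and 414 CPM) and the 8 neuroblast markers (403 and 423 CPM, nearly all Sox11). The oligodendrocyte list summed to 71.99 and 57.8 CPM, the mural list to 28.7 and 42.9 CPM, the mature neuron list to 28.3 and 37.2 CPM and the ependymal list to 10.9 and 9.77 CPM. In the neuroblast, mural and mature neuron lists 1 gene each, Tubb3, Cspg4 and Snap25, was at least 1.5-fold higher in the aged library, against 1.04% of all genes compared. The part of these cell types in the results was not tested.

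Histones are the proteins around which DNA is wrapped. H2A, H2B, H3 and H4 form the core particle, and H1 binds the DNA that enters and leaves it. The replication-dependent genes supply these proteins when DNA is copied. Most lie in clusters and lack introns, their transcription is switched on with S phase through the coactivator NPAT, and their mRNA normally ends in a short stem-loop that is bound by the protein SLBP, with no poly(A) tail. The 3′ chemistry used here primes on runs of A, so a UMI stands for a histone RNA that offered such a run. How much of each gene's RNA was captured was not measured and its part in the results was not tested, and the order of genes given below is one of captured UMIs with no correction for length.

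In the GENCODE vM21 annotation on GRCm38, 41 of the 53 genes lay on chromosome 13 between 21715763 and 23764406 and held 93.5% of the histone UMIs. A further 9 lay on chromosome 3 between 96219865 and 96270132 (3.45% of UMIs), 2 on chromosome 11 between 58948920 and 58956830 (3.06%) and 1, Hist4h4, on chromosome 6. The longest coding transcript had 1 exon in 50 genes. Identifiers of 51 genes were found in the annotation, and Hist1h2bh and Hist1h2bm were matched by symbol only. The share of a gene's 50-base stretches that also occur in another histone gene ranged from 0 to 93.1% and was over 50% in 22 genes. How the authors' counting placed reads that fit several copies was not stated in any label or header, so values of single genes among near copies are uncertain. This holds above all for Hist1h2ap (93.1%), Hist1h3i (87.6%) and Hist1h2an (85.8%) among the genes compared between libraries, while Hist1h1b and Hist1h1a shared 0% with other members and Hist3h2a 2%. On the same strand 6 of the genes overlap another gene, so reads there could belong to either. Hist1h1e and Hist1h2be overlap each other and Gm11398, and Hist3h2a overlaps Trim17. Hist2h2bb overlaps Gm42743, and Hist2h2aa1 and Hist2h3c1 overlap Gm20634.

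The stem-loop at the end of histone mRNA was searched in the annotated transcripts as GGNNCTNTTNAGNNCC, where N is any base, on the transcript's strand. The search began at the coding length less 60 bases, counted from the transcript's start. Where bases precede the coding part, it thus began more than 60 bases before the stop codon. The pattern was found in 35 of the 53 genes, and anywhere in a transcript in 0.516% of 21884 protein-coding genes outside the family. The 18 genes without a match include 9 whose annotated transcript stops within 20 bases of the stop codon, so no match there says only that the letters are not in the annotated window. Shown is the gene with the most UMIs of each of the 6 forms found, to compare the types, and both H2A genes with a run of A, with the paired stem bases in capitals.
Hist1h1e: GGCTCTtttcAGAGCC
Hist1h2ap: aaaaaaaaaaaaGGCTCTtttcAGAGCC
Hist1h2ae: aaaaaaaacaaaGGCTCTtttcAGAGCC
Hist1h3c: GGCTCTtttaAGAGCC
Hist1h4d: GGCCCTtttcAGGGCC
Hist1h4i: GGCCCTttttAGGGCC
Hist2h2ac: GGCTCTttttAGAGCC
Hist1h4b: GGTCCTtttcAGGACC
The form of Hist1h1e was found in 22 genes of types H1, H2A, H2B and H3, that of Hist1h3c in 5 genes of H2B and H3, and that of Hist1h4d in 4 H4 genes. In 6 of the 7 H4 genes with a match the stem is GGCCCT and AGGGCC, in Hist1h4b GGTCCT and AGGACC, and in the genes of the other types GGCTCT and AGAGCC, and each of these pairs in full. A run of at least 8 A within 30 bases before the stem-loop was found in 2 genes, Hist1h2ap with 12 A directly before it and Hist1h2ae with 8 A at 4 bases from it. These are the 2 H2A genes with the most UMIs, 21332 and 19397 over all barcodes, against 6442 for the next H2A gene, Hist1h2ab. Whether the run of A bears on their capture was not tested.

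Promoters were read from RefSeq (GRCm38.p6) and matched 47 of the 53 genes. They hold 250 bases before the start and 50 after it, and 4 motifs were searched in the 300 bases on both strands, with 0 member promoters in which matches of different motifs overlapped. The CCAAT box was found in 42 of 47 (89.4%, against 37.4% of all 32851 promoters) and in 13 of 13 H2A, 13 of 13 H2B, 9 of 9 H3 and 4 of 4 H1 promoters, but in 3 of 8 H4 promoters. TATAAA was found in 25 of 47 (53.2%, against 13.6%), and ATGCAAAT, the octamer bound by POU factors, in 10 of 47 (21.3%, against 1.74%), all of them H2A or H2B genes. AAACACA, the element of H1 promoters, was found in 3 of 4 H1 promoters and 2 of the other 43, against 7.18% of all promoters. The 250 bases before the start are shown, with these motifs in capitals on either strand (ATTGG and TTTATA are CCAAT and TATAAA on the other), for the 2 genes with the most UMIs, for 2 H2A genes whose window also covers the start of an H2B gene on the other strand, and for Hist3h2ba, the gene furthest apart between the libraries.
Hist1h1b, chr13:21780626-21780875, minus strand: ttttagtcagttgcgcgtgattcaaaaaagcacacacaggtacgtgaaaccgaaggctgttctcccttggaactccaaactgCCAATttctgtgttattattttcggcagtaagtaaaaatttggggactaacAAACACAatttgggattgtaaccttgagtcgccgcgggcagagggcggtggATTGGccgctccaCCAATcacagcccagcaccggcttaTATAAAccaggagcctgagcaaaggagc
Hist1h1e, chr13:23622559-23622808, minus strand: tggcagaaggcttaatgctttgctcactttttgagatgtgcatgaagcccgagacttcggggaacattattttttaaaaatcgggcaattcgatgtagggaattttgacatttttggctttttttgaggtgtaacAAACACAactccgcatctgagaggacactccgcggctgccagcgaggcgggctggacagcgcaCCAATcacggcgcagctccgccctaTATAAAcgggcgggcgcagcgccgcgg
Hist1h2ac, chr13:23683960-23684209, minus strand: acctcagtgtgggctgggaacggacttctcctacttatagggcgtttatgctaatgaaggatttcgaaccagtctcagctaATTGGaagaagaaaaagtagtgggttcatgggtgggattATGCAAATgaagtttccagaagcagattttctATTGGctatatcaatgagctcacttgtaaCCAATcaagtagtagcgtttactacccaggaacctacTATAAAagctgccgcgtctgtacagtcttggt
Hist2h2ac, chr3:96220881-96221130, minus strand: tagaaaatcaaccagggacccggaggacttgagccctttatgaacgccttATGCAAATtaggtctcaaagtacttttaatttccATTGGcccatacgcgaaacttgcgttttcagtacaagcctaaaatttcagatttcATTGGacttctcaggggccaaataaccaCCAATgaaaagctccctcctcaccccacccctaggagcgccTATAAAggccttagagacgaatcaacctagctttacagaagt
Hist3h2ba, chr11:58948661-58948910, plus strand: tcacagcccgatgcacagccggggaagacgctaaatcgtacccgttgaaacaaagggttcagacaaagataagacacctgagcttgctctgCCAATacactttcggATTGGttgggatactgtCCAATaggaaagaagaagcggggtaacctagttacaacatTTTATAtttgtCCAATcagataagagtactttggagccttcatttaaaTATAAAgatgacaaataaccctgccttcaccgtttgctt
Both H1 windows hold AAACACA, with CCAAT and TATAAA between it and the start. The window of Hist1h2ac reaches to the annotated start of Hist1h2bc, 250 bases lie between the 2 genes, and that of Hist2h2ac reaches to Hist2h2be, with 238 bases between them.

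The histone genes together stood at 1698 CPM in young and 1603 CPM in aged cells. The aged level was 0.944 times the young one (0.936 to 0.953), a log2 ratio of -0.08. H1 genes supplied 51.7% of the histone UMIs in young and 50.4% in aged cells, H2A genes 22.3% and 25.5%, H2B genes 9.77% and 7.997%, H4 genes 8.99% and 9.22%, and H3 genes 7.24% and 6.94%. Hist1h1b and Hist1h1e alone held 44% of the UMIs, and the 10 most counted genes 78.7%. H2A was the one type whose sum was higher in the aged library, and H2B was the type furthest apart. Among the H2A genes that reached 10 CPM, Hist1h2ap alone was higher in the aged library.

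Among the linker histone genes, which as a sum stood at 878 CPM young and 808 CPM aged, Hist1h1b was highest with 486 and 437 CPM. Hist1h1e followed with 269 and 261 CPM, Hist1h1c with 61.4 and 57.8 CPM, and Hist1h1a with 31.4 and 30.5 CPM. Hist1h1d stood at 30.3 CPM in young and 21.1 CPM in aged cells, a log2 ratio of -0.50, and was the H1 gene furthest apart. All 5 were lower in the aged library.

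The H2A sum was 378 CPM young and 408 CPM aged, a ratio of 1.08 (1.06 to 1.10). Of the H2A genes that reached 10 CPM in a library, only Hist1h2ap was higher in the aged, with 99.99 CPM young and 153 CPM aged, a ratio of 1.53 (1.48 to 1.58) and a log2 ratio of 0.61. The other 2 most counted, Hist1h2ae and Hist1h2ab, stood at 123 and 114 CPM and at 40.7 and 39.8 CPM. Hist3h2a was lower in the aged library, 34.6 against 25.3 CPM. Hist1h2ap shares 93.1% of its 50-base stretches with other histone genes, so its own value is uncertain. Hist2h2ac stood at 36.4 and 35.6 CPM and Hist1h2an at 13.5 and 10.1 CPM. Among the H2A genes that reached 10 CPM, the higher aged sum thus came from Hist1h2ap alone. The H2A sum was not computed without Hist1h2ap, and the H2A genes under 10 CPM were not compared.

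The H2B sum was 166 CPM young and 128 CPM aged, a ratio of 0.773 (0.75 to 0.796). Hist1h2bc, the most counted, stood at 71.2 and 50.7 CPM, a log2 ratio of -0.48. Hist1h2bj stood at 20.4 and 20.3 CPM. Hist3h2ba stood at 20.9 CPM in young and 8.02 CPM in aged cells, 2.61-fold lower in the aged (2.35 to 2.90). Without Hist1h2bc and Hist3h2ba, a pair left out after their values were seen, the H2B sum was 73.8 and 69.4 CPM. That is a ratio of 0.941 (0.902 to 0.982). All histone genes without this pair and Hist3h2a had a ratio of 0.967 (0.958 to 0.976).

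The H3 sum was 123 CPM young and 111 CPM aged, led by Hist1h3c at 48.1 and 43.8 CPM, Hist1h3e at 34.5 and 29.6 CPM and Hist1h3i at 14.9 and 13.9 CPM. The H4 sum was 153 and 148 CPM, with Hist1h4d at 79.1 and 77.7 CPM and Hist1h4i at 47.2 and 37.3 CPM. Hist1h4h was higher in the aged library, 20.04 against 14.4 CPM, a log2 ratio of 0.45.

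**Figure D1:**
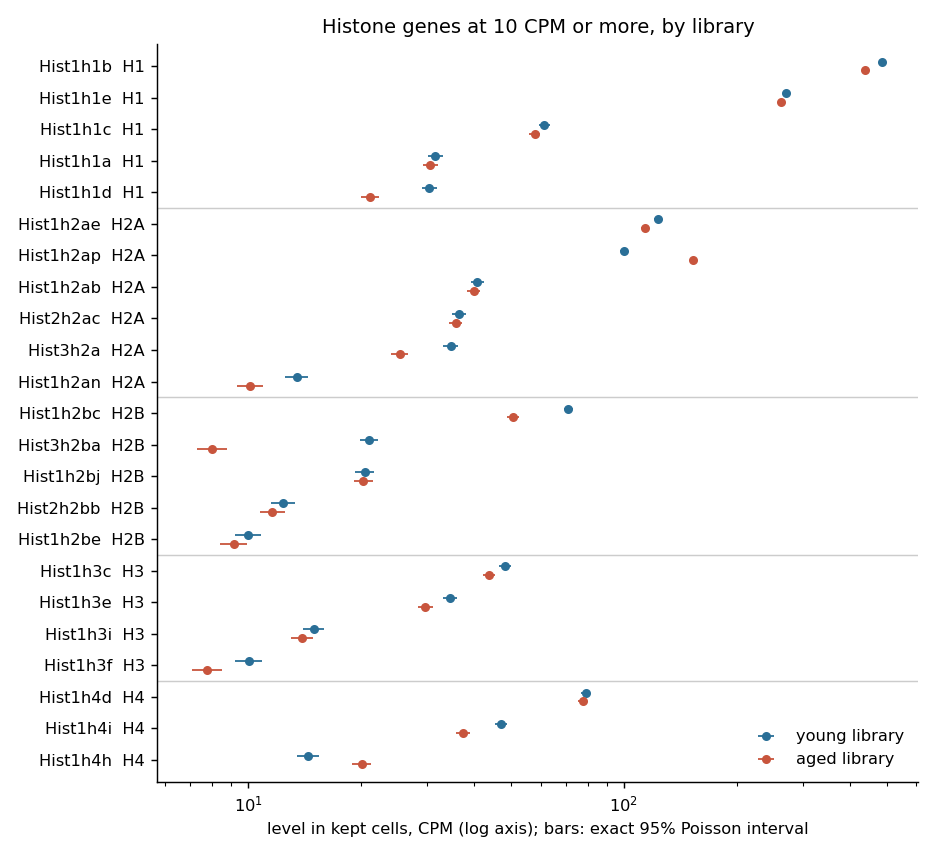
Levels in kept cells of the young (blue) and aged (red) library for the 23 histone genes that reached 10 CPM in either, on a log axis in CPM, grouped by histone type, with exact Poisson intervals as bars. Points lie close together for most genes; Hist1h2ap (99.99 and 153 CPM) and Hist1h4h (14.4 and 20.04 CPM) lie to the right in the aged library and Hist3h2ba (20.9 and 8.02 CPM) to the left.

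By the rule of size, 23 of the 53 genes had at least 10 CPM in either library and were compared. Of these, 1 (Hist1h2ap) was at least 1.5-fold higher in the aged library, against 1.04% of the 8332 genes compared, and 1 (Hist3h2ba) at least 1.5-fold lower, against 0.864%. In any size, 21 of the 23 were lower in the aged library, against 44.6% of all genes compared. The median log2 ratio was -0.11 for the 23 histone genes and 0.02 for all genes compared, and the intervals of 8 of the 23 included no difference. The 30 genes under 10 CPM in both libraries were split, 14 higher and 16 lower in the aged. With the mitochondrial limit at 20%, or with no filter on cells, 3 genes in place of 1 were at least 1.5-fold lower, and Hist1h2bc, at a log2 ratio of -0.61 under either, was one that crossed the limit.

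Each cell was placed in 1 of 4 cell cycle states by 2 scores, the summed UMIs of a G1/S gene list and of a G2/M gene list, which hold no histone gene. Cells at or below the pooled median of both scores were called low, and those above it were called G1/S-high, G2/M-high or both high. The low state held 642 young and 677 aged cells, the G1/S-high state 667 and 608, the both-high state 670 and 648, and the G2/M-high state 671 and 604. Of all 5187 cells, 747 lay within 0.1 SD of a cut, so the states are ranges of 2 scores and not cell types. Cells of 1 library are not replicates, and the aged library serves as a separate set of cells in which each comparison was repeated.

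Histone RNA followed the states in both libraries. In the young library the sum stood at 405 CPM in the low, 1783 in the G1/S-high, 3538 in the both-high and 690 in the G2/M-high state. In the aged library it stood at 348, 1690, 3528 and 567 CPM. The G1/S-high level was 4.41 times the low level in young cells (4.27 to 4.54) and 4.85 times in aged cells (4.70 to 5.01), log2 ratios of 2.14 and 2.28. The both-high level was 8.74 times (8.49 to 9.005) and 10.1 times (9.83 to 10.4) the low level. With the mitochondrial limit at 20% the G1/S-high over low log2 ratio was 1.39 in young and 1.72 in aged cells, and with no filter on cells it was 1.34 and 1.67, so its size depends on which cells were kept. The both-high cells were also deeper, with medians of 26464 and 27984 UMIs against 19678 and 21000 in the low state. Thinned to 5000 UMIs a cell, both-high cells held a mean of 18.2 histone UMIs and low cells 2.06 in the young library. In the aged library these means were 17.9 and 1.82. The G1/S-high over low log2 ratio of the thinned cells was 1.97 and 2.11.

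As sums over all genes of a type, H1 and H3 varied most between states. H1 stood at 120 CPM in the low and 1937 CPM in the both-high state of the young library, and at 129 and 1879 CPM in the aged library. H3 stood at 14.4 and 278 CPM, and at 16.5 and 255 CPM. H2A varied 10.7-fold between low and both high in young and 13.5-fold in aged cells, and H4 5.52-fold and 6.41-fold. The H2A sum includes Hist3h2a, which was lower in the both-high state. In the low state Hist3h2a supplied 48.3 of the 75.1 CPM of H2A in young and 28.5 of 66.5 CPM in aged cells. Hist1h2ap, Hist1h2ae and Hist1h2ab, the most counted H2A genes, had both-high over low log2 ratios of 4.65, 4.71 and 4.77 in young cells. In aged cells these were 4.51, 4.45 and 4.57. The range of H2A without Hist3h2a was not computed, so the order of types is given only for sums that include this gene. H2B varied least, 143 against 231 CPM (1.62-fold) in the young and 90.6 against 200.1 CPM (2.21-fold) in the aged library. Without Hist1h2bc and Hist3h2ba the H2B sum stood at 10.4 and 167 CPM in the young and 11.3 and 157 CPM in the aged library, 16.1-fold and 13.9-fold, close to the 16.1-fold and 14.6-fold of H1.

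Gene by gene, 20 histone genes could be compared between the G1/S-high and the low state in either library. At least 2-fold higher in the G1/S-high state were 15 of 20 in the young library, against 4.29% of all genes compared, and 16 of 20 in the aged library, against 4.18%. In both libraries 15 were past the limit. At least 2-fold lower were 1 (Hist3h2a) in the young library (background 0.402%) and 0 in the aged (0.484%). In the both-high state 28 of 32 were at least 2-fold higher in the young library (background 5.89%) and 29 of 32 in the aged (6.16%), 28 of them in both, while 1 (Hist1h2bc) was at least 2-fold lower in young (0.764%) and 0 in aged cells (1.17%). The median log2 ratio of the 32 was 3.67 in young and 3.45 in aged cells, against -0.03 for all genes compared in either library. The other 21 genes stayed under 10 CPM in these states and were not compared. In the G2/M-high state 8 of 14 young (4.55%) and 8 of 15 aged (5.05%) were at least 2-fold higher than in the low state, and 0 in either library were at least 2-fold lower (1.08% and 1.07%). Hist1h1b, Hist1h3c and Hist1h2ab had the highest log2 ratios there, 2.35, 2.12 and 2.06 in young and 1.84, 2.09 and 1.81 in aged cells.

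Hist1h1b had the highest both-high over low log2 ratio of CPM plus 1 among the genes compared, in both libraries. It stood at 22.3 CPM in the low, 572 in the G1/S-high, 1100 in the both-high and 118 in the G2/M-high state of the young library, and at 23.3, 500.4, 1051 and 86.2 CPM in the aged library. Its both-high over low ratio was 49.3 (43.6 to 55.9) in young and 45.0 (40.2 to 50.5) in aged cells. The plain ratio was larger for some sparse genes, such as Hist1h2af, named after its values were seen, at 0.169 and 16.5 CPM in young cells (97.8-fold, 26.8 to 812) and 0.298 and 15.4 CPM in aged cells (51.6-fold, 19.9 to 191). Next by the log2 ratio of CPM plus 1 came 3 H2A genes and Hist1h3c. Hist1h2ab stood at 2.45 CPM in the low and 93.4 CPM in the both-high state of the young library and at 3.06 and 95.3 CPM in the aged, log2 ratios of 4.77 and 4.57. Hist1h2ae stood at 9.98 and 285 CPM in the young library, and Hist1h2ap at 7.61 and 215 CPM in the young and 14.1 and 342 CPM in the aged library. Hist1h3c stood at 3.43 and 104 CPM in the aged library, a log2 ratio of 4.57. Hist1h1a had a G1/S-high over low log2 ratio of 3.46 in the aged library, the third highest there.

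The abundant Hist1h1e varied less than Hist1h1b. It was present in the low state at 62.6 CPM in young and 77.5 CPM in aged cells and reached 583 and 588 CPM in the both-high state. Hist1h1c stood at 30.3 and 116 CPM in the young and 22.6 and 118 CPM in the aged library. Hist1h4i varied least among the genes that were higher, from 33.2 to 55.3 CPM in young and from 23.4 to 48.3 CPM in aged cells, log2 ratios of 0.72 and 1.01. In the low state Hist1h4i was thus the highest H4 gene, above Hist1h4d at 13.5 and 14.5 CPM, whereas in the both-high state Hist1h4d, at 178 and 175 CPM, was the higher one.

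**Figure D2:**
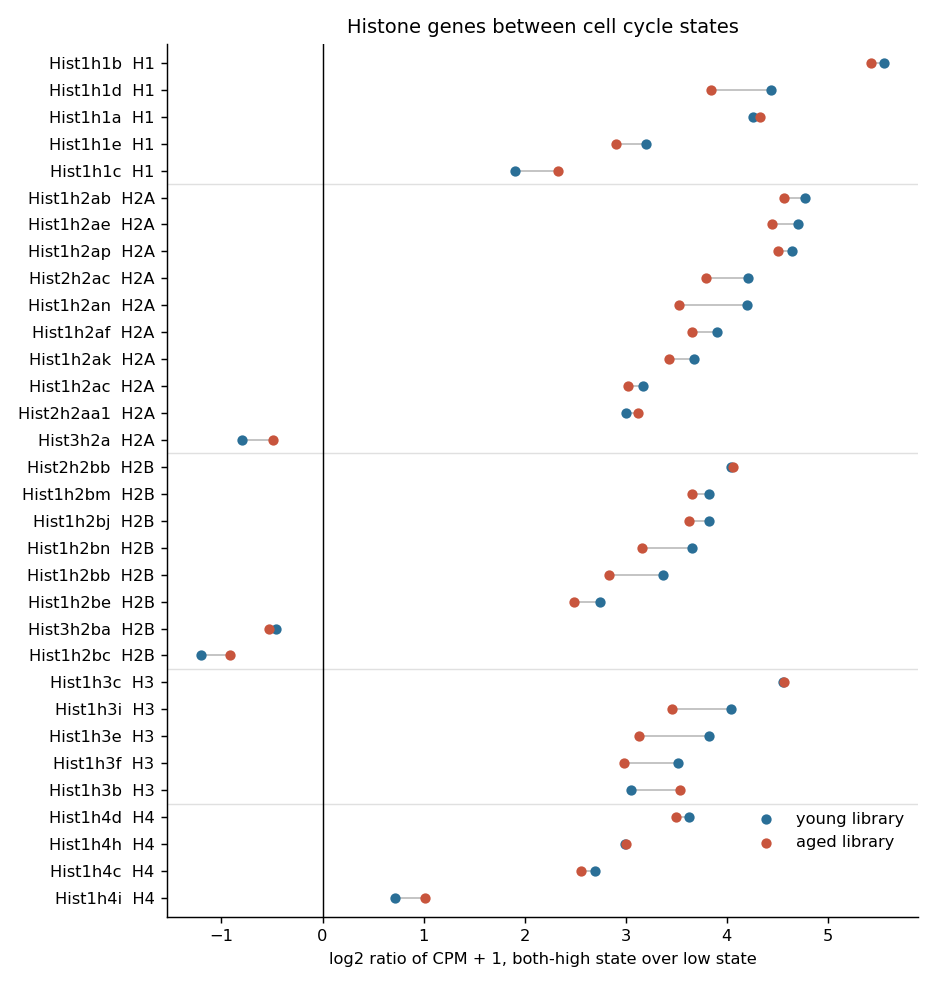
The log2 ratio of CPM plus 1 between the both-high and the low state for the 32 histone genes compared, in young (blue) and aged (red) cells, grouped by type; a grey line joins the 2 values of a gene. Hist1h2bc, Hist3h2a and Hist3h2ba lie below 0 in both libraries, Hist1h4i lies at 0.72 and 1.01, and Hist1h1b is furthest to the right at 5.56 and 5.43.

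A group of 3 genes ran the other way. Hist1h2bc, Hist3h2a and Hist3h2ba were lower in the G1/S-high and both-high states than in the low state, in both libraries. Hist1h2bc stood at 106 CPM in the low, 69.3 in the G1/S-high, 45.6 in the both-high and 73.4 CPM in the G2/M-high state of the young library, and at 68.6, 55.6, 35.8 and 47.2 CPM in the aged library. Its both-high level was 0.431 times (0.393 to 0.472) and 0.522 times (0.470 to 0.579) the low level. It was the histone gene with the highest level in the low state of the young library.

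Hist3h2a stood at 48.3, 22.7, 27.4 and 43.2 CPM over the same states in the young and at 28.5, 17.0, 19.98 and 35.5 CPM in the aged library, so its level in the G2/M-high state was below the low state in the young and above it in the aged library. Hist3h2ba stood at 26.3, 18.9, 18.8 and 21.1 CPM in the young and at 10.7, 7.42, 7.16 and 7.198 CPM in the aged library. Both lie on chromosome 11, Hist3h2ba at 58948920 to 58949533 and Hist3h2a at 58954685 to 58956830, both on the plus strand, and both have AATAAA, the signal for a poly(A) tail, within the last 50 annotated bases. Among all 53 genes 10 have it there. Lower in the both-high than in the low state in both libraries were 3 of these 10 and 2 of the 43 others, sparse genes included. Hist3h2a and Hist3h2ba also have the stem-loop match. Whether the transcript end bears on the course was not tested. Hist1h2bc lies on chromosome 13 at 23684199 to 23692908 on the plus strand. Its 1 annotated coding transcript has 2 exons and 1156 bases, with no stem-loop match and no AATAAA in the last 50 bases. These 3 genes together were 127 CPM young and 84.1 CPM aged, a ratio of 0.663 (0.640 to 0.688), and without them the remaining 50 genes were 1571 and 1519 CPM, a ratio of 0.967 (0.958 to 0.976). The 3 were grouped after their values were seen.

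The difference between libraries in Hist3h2ba was seen in each state. The aged level was lower by a log2 ratio of -1.22 in the low, -1.24 in the G1/S-high, -1.28 in the both-high and -1.43 in the G2/M-high state. For Hist1h2bc the log2 ratios were -0.62, -0.31, -0.34 and -0.63, and for Hist3h2a -0.74, -0.40, -0.44 and -0.28. Hist1h2ap was higher in the aged cells of every state, with log2 ratios of 0.81, 0.63, 0.67 and 0.37, and so was Hist1h4h, with 0.42, 0.53, 0.43 and 0.50. Hist1h1d, nearly absent from the low state at 2.20 and 2.61 CPM, was lower in the aged cells of the other states by log2 ratios of -0.63, -0.42 and -0.64. The sum over all histone genes was closest between the ages in the both-high state, 3538 and 3528 CPM, and furthest in the G2/M-high state, 690 and 567 CPM, a log2 ratio of -0.28.

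Within states few genes were past the 1.5-fold limit. In the low state 10 genes were compared, of which 1 (Hist1h2ap) was at least 1.5-fold higher in aged cells, against 1.55% of all genes, and 3 (Hist3h2ba, Hist3h2a and Hist1h2bc) lower, against 1.73%. In the G1/S-high state it was 1 higher (1.49%) and 2 lower (1.13%) of 20, in the both-high state 1 higher (1.24%) and 1 lower (1.05%) of 32, and in the G2/M-high state 0 higher (1.19%) and 2 lower (0.899%) of 15. In the both-high state Hist1h2an was second lowest, 29.8 against 20.9 CPM, and Hist1h3b the third highest, 13.6 against 17.6 CPM. In the G2/M-high state the third lowest was Hist1h4i, 52.1 against 37.4 CPM, and in the G1/S-high state the third highest was Hist1h2bj, 20.4 against 22.5 CPM.

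Divergent gene pairs, whose starts face away from each other within 500 bases, allow 2 histone genes with a shared upstream region to be set side by side, and 7 such pairs of an H2A and an H2B gene were found. In the pair whose shared region is shown above, Hist1h2ac had 3 UMIs in the low and 168 in the both-high state of the young library, 0.254 and 10.3 CPM, a ratio of 40.7 with an interval of 13.7 to 199, and 0.373 and 10.1 CPM in the aged library. Hist1h2bc, on the other strand, had the levels above, lower in the both-high state. Hist2h2ac and Hist2h2be formed a second such contrast. Hist2h2ac stood at 3.55 and 83.3 CPM in the low and both-high states of the young and 5.07 and 83.1 CPM of the aged library. Hist2h2be stood at 2.03 and 0.983 CPM, from 24 and 16 UMIs, and at 0.970 and 0.895 CPM, from 13 and 15 UMIs, so it was not higher in the both-high state of either library; its ratio had an interval of 0.241 to 0.951 in young and 0.409 to 2.11 in aged cells. Hist1h2ak and Hist1h2bn, by contrast, were both higher in the both-high state, with young log2 ratios of 3.68 and 3.66. Both genes were also higher there in both libraries in the pairs Hist1h2ae and Hist1h2bg, and Hist1h2an and Hist1h2bp. The same held for Hist1h2ag and Hist1h2bj, and for Hist1h2bl and Hist1h2ai. These pairs include genes that stayed under 10 CPM in both states. Only 2 of the 7 pairs thus ran in opposite directions. Hist1h2ac, Hist1h2ak, Hist1h2bn, Hist2h2be and the genes of the other pairs are named here after their values were seen.

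The course through the cycle was followed in finer steps by the angle of each cell around the medians of the 2 scores, in 12 bins of 30° that start where the G1/S score is high and the G2/M score at its median. The histone sum was highest in the first bin, at 4187 CPM in young and 4413 CPM in aged cells, and lowest in the eighth, at 374 and 313 CPM, an 11.2-fold and 14.1-fold range. H1, H2A and H3 had their highest level in the first or the second bin and H4 and H2B in the second, in both libraries. In the young library the range was 23.997-fold for H1, 25.3-fold for H3, 14.7-fold for H2A, 6.45-fold for H4 and 2.32-fold for H2B. The H2A sum includes Hist3h2a and the H2B sum Hist1h2bc and Hist3h2ba, which ran the other way, so this order holds for such sums. Hist1h2bc was highest in bin 6 of the young (153 CPM) and bin 7 of the aged library (103 CPM), and lowest in bin 1 (41.7 CPM) and bin 3 (33.4 CPM). The G2/M list was highest in bin 4 in both libraries, where histone genes stood at 733 and 614 CPM.

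**Figure D3:**
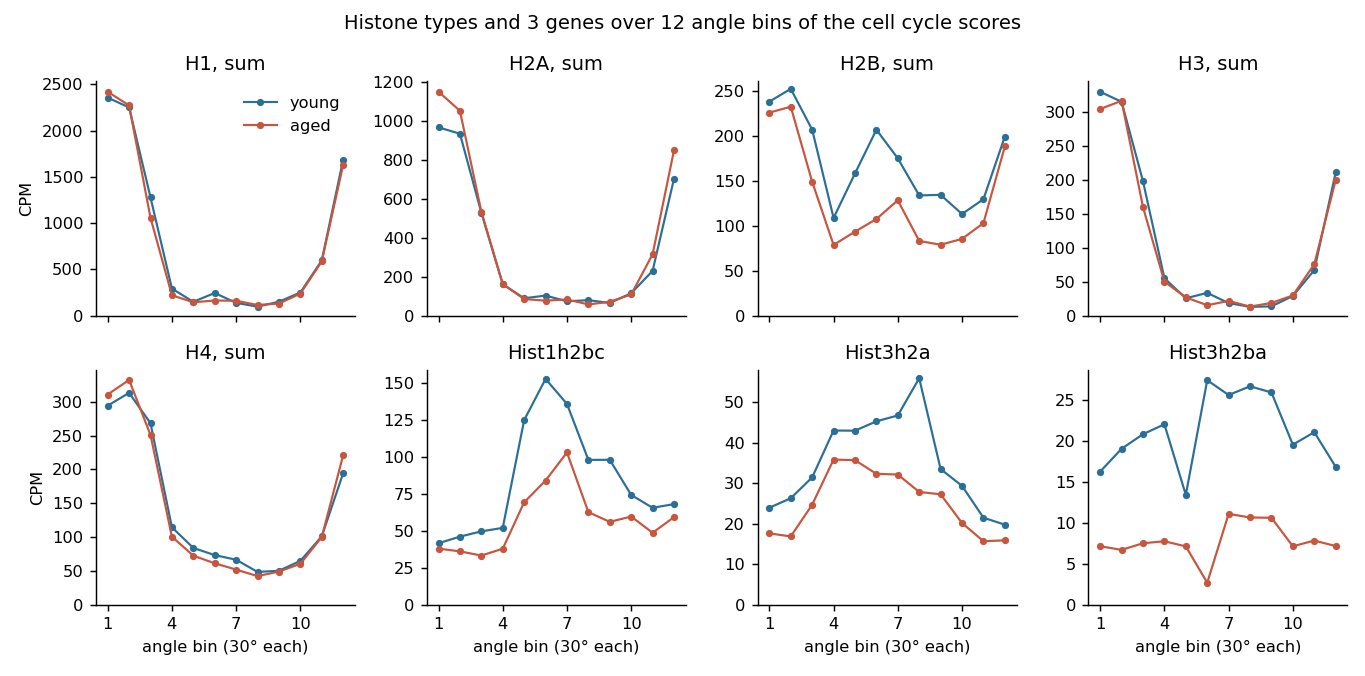
CPM in 12 angle bins of 30° each for the sum of each histone type and for Hist1h2bc, Hist3h2a and Hist3h2ba, in the young (blue) and aged (red) library; each panel has its own axis from 0. The sums are highest in bins 1 and 2 and low from bin 4 to bin 10, H2B has a second, lower peak around bins 6 and 7, and Hist1h2bc is highest in bins 6 and 7.

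As a description over these 24 points, which share their libraries and depth, the level of most single genes followed that of the other histone genes. Pearson's r was 0.992 for Hist1h1b, 0.995 for Hist1h1e and 0.997 for Hist1h2ab. It was 0.648 for Hist1h4i and below 0 for Hist1h2bc (-0.56), Hist3h2a (-0.59), Hist2h2be (-0.35), Hist3h2ba (-0.17) and the sparse Hist2h3c2 (-0.12, 108 UMIs). Among 3273 other genes ranked, those most like the histone sum over the same points were Tk1, a thymidine kinase that makes DNA precursors (0.935), Siva1 (0.933), Ifrd1 (0.929), Esco2, which acetylates cohesin during S phase (0.925), Ncapg2, a condensin subunit (0.918), Taf1 (0.913), Sp3 (0.911), Ncapd3, also of condensin (0.904), Syne2 (0.901) and Dut, a dUTPase (0.899). Esco2 stood at 1.52 CPM in the low and 131 CPM in the both-high state of the young and at 1.49 and 136 CPM of the aged library. Sp3 varied far less, from 41.1 to 67.8 CPM and from 34.6 to 68.4 CPM, so likeness in course is not likeness in size.

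Single cells were set on a common depth by drawing 5000 UMIs from each, which left 2307 young and 2274 aged cells and dropped 343 and 263 shallower ones. The median cell then held 3 histone UMIs in either library. The 10% of cells with the most histone UMIs held 37.2% of them in young and 39.8% in aged cells, and the 25% with the most held 70.9% and 73.6%. The median was 2 UMIs in the low, 4 in the G1/S-high, 18 in the both-high and 2 in the G2/M-high state of the young library, and 1, 4, 17 and 2 in the aged. The G1/S-high state was spread most relative to its median, with its middle 50% of cells between 2 and 14 UMIs in the young and 2 and 13 in the aged library. In the both-high state the lowest 10% of cells had at most 2 histone UMIs in either library and the highest 10% at least 33 and 32.

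**Figure D4:**
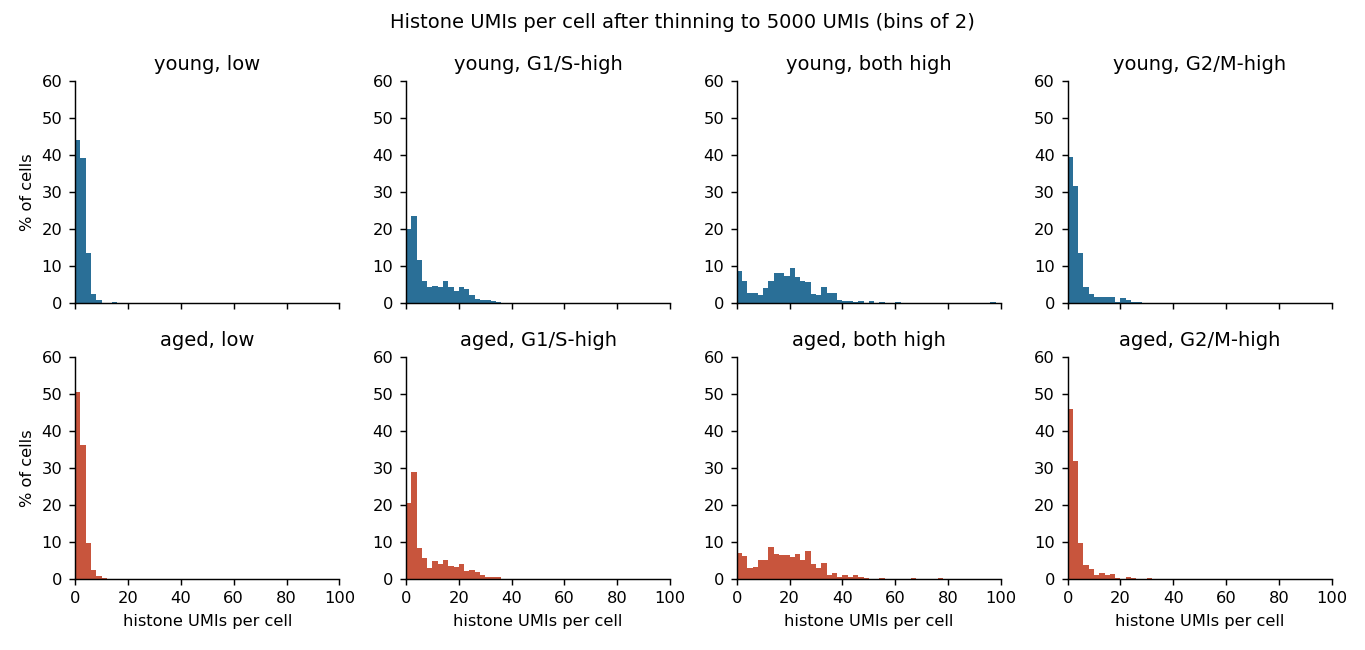
Percent of cells by histone UMIs per cell after thinning to 5000 UMIs, in bins of 2, for the 4 states of the young (blue, top) and aged (red, bottom) library. Low and G2/M-high cells crowd at few UMIs, the both-high cells form a broad hump around the medians of 18 and 17 with a smaller group near 0, and G1/S-high cells are spread between the 2.

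Across these thinned cells the types went together unequally. Over all cells Pearson's r, with counts of few UMIs and given as a description, was highest between H1 and H2A (0.742 young, 0.738 aged) and lowest between H2B and H4 (0.145 and 0.198). Within the both-high state the H1 and H2A value was 0.773 and 0.704. Within the low state the 10 pairs of types lay between -0.08 and 0.12 in the young and between -0.02 and 0.13 in the aged library.

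Histone level also differed with the depth of a cell. The cells of each library were divided into 4 groups of equal size by total UMIs. In the young library, from the shallowest (median 4530 UMIs) to the deepest (33586 UMIs), the histone sum stood at 1199, 1274, 1942 and 1866 CPM, and in aged cells at 1222, 1182, 1839 and 1759 CPM. The deepest over shallowest log2 ratio was 0.64 and 0.52, but with no filter on cells it was -0.49 and -0.51, so its direction depends on that filter. The mix of states moved with depth: G1/S-high and both-high cells together made up 38.9% of the shallowest and 58.8% of the deepest group of young cells, and 41.3% and 57.4% of aged cells.

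Within states the relation to depth took different directions. In low cells the sum went from 692 CPM in the shallowest to 353 CPM in the deepest group of the young library and from 456 to 299 CPM of the aged. In both-high cells it went from 4317 to 2834 CPM and from 4525 to 2999 CPM. In G1/S-high cells it went the other way, from 1063 to 2270 CPM and from 1111 to 2043 CPM. G2/M-high cells had no single direction, with 702, 709, 808 and 595 CPM from the shallowest to the deepest young group and 524, 585, 727 and 461 CPM in the aged. Over all kept cells Hist1h2bc went from 131 to 50.3 CPM in the young and from 71.5 to 38.7 CPM in the aged library, Hist3h2a from 48.9 to 29.0 and from 34.3 to 22.9 CPM, and Hist3h2ba from 39.1 to 14.9 and from 13.4 to 5.94 CPM, while Hist1h1b went from 289 to 543 and from 295 to 482 CPM. The difference of Hist3h2ba between the ages was seen in each of the 4 depth groups, with 27.1 against 10.6 CPM in the second and 19.1 against 7.16 CPM in the third group.

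**Figure D5:**
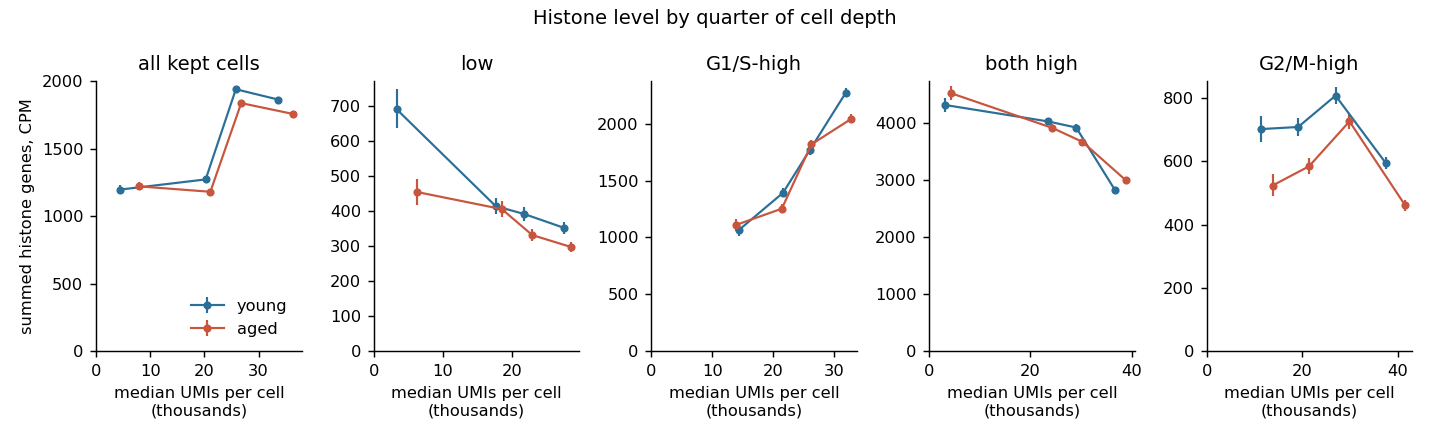
Summed histone genes in CPM, with exact Poisson intervals, against the median UMIs per cell (in units of 1000) of 4 groups of cells by depth, for all kept cells and within each state, in the young (blue) and aged (red) library; every axis starts at 0. The level is lower in deeper cells of the low and both-high states (4317 to 2834 CPM in young both-high cells) and higher in deeper G1/S-high cells (1063 to 2270 CPM).

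Genes that act on histones were described from 4 lists. Of 29 genes of histone mRNA synthesis and processing, 8 were at least 2-fold higher in the G1/S-high than in the low state in either library, against 4.29% and 4.18% of all genes. They were led by the cyclin gene Ccne2, 5.49 against 57.8 CPM in young and 6.71 against 53.9 CPM in aged cells, and E2f1, 7.78 against 46.6 CPM and 7.53 against 49.2 CPM. Cdk2, the kinase that pairs with cyclin E, and Ccne1 followed. Slbp, the stem-loop binding protein, stood at 53.0 and 152 CPM in the low and G1/S-high states of the young and 52.7 and 156 CPM of the aged library, but it is in the G1/S list that defined the state, as are Ccne2 and Casp8ap2, so their difference is in part set by the choice of cells. Npat, which is in neither list, stood at 19.4 and 37.2 CPM and at 19.5 and 35.7 CPM.

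Of 25 histone chaperones, which carry histones to and from DNA, 8 were at least 2-fold higher in the G1/S-high state in either library, against 4.29% of all genes young and 4.18% aged. Asf1b stood at 3.21 and 36.7 CPM in young and 2.98 and 30.4 CPM in aged cells, and the chromatin assembly factor genes Chaf1a and Chaf1b at 15.4 and 92.8 and at 21.6 and 122 CPM in young cells, of which Chaf1b is in the G1/S list. Mms22l, a partner of the chaperone-like Tonsl, stood at 7.95 and 54.9 CPM. Like Chaf1b, the chaperone genes Nasp and Mcm2 are in the G1/S list. The count of 8 chaperones is thus in part set by the choice of cells. Of the 11 replacement histone genes, which make variants outside S phase as well, 0 were at least 2-fold higher in the G1/S-high state in either library (background 4.29% young and 4.18% aged) and 3 in the both-high state (5.89% and 6.16%). These were H2afx, 66.4 against 318 CPM in young and 62.8 against 316 CPM in aged cells, H1f0, 56.05 against 162 and 50.4 against 140 CPM, and Cenpa, the centromeric H3, 116 against 266 and 93.8 against 277 CPM, which is in the G2/M list.

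Of 16 replication licensing genes compared, 15 in young and 16 in aged cells were at least 2-fold higher in the G1/S-high state. The share over all genes was 4.29% and 4.18%. Cdc45 stood at 4.48 and 64.6 CPM in young and 4.48 and 59.5 CPM in aged cells. Several licensing genes, Cdc45 among them, are in the G1/S list that defined the state. These counts are thus in large part set by the choice of cells. Between the ages 0 genes of the 4 lists were 1.5-fold apart in either direction, against 1.91% of all genes. The largest log2 ratio aged over young in the list of histone mRNA synthesis and processing was -0.32 for Lsm10 (36.5 and 29.1 CPM). In the chaperone list it was -0.27 for Chaf1b (63.4 and 52.2 CPM). In the other lists it was -0.29 for the linker histone variant H1f0 (106 and 85.97 CPM) and -0.16 for Cdc45 (38.0 and 33.9 CPM).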

How the data were processed

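Libraries were prepared with 10x Genomics 3′ v3 reagents, as the labels' protocols state. What the authors deposited are matrices of raw UMI counts, with no normalization; Cell Ranger 3.0.2 and the build mm10 are named in the submitters' processing notes, and no annotation is named. Symbols, in capitals in the files, are written in mouse style. The genes and lists were chosen with earlier results of these data known.

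Cells were kept with at least 1000 genes and at most 10% mitochondrial UMIs, and no doublet caller was used. Kept cells' counts were summed and scaled to CPM. A gene was compared if it reached 10 CPM in either group, with ratios as log2 after adding 1 CPM. Sums have exact Poisson intervals and ratios exact conditional binomial intervals, at 95%. State scores were log2 of a list's UMIs per 10000 UMIs outside the histone genes, plus 1, cut at pooled medians. No test was run, because each age has 1 library. Code was tested on simulated data.

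Named are the 3 genes with most UMIs of each histone type, those at least 1.5-fold apart between the libraries, the 3 highest and 3 lowest in each comparison, up to 4 genes per list, and the 10 genes most like the histone sum. Slbp, Npat, Casp8ap2, Tonsl and the divergent pairs are not covered by it and were picked with their values in view. Nasp and Mcm2 are named only because they are in the G1/S list. Alternatives changed the filters, normalization, doublets, depth, state cuts and members. Python 3.11.15, scipy 1.17.1 and scanpy 1.11.5 were used.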

Additional observations from a re-analysis of the deposited data

Results flagged for a closer look

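Hist1h1e differed between the ages in opposite directions by cell cycle state. Its log2 ratio aged over young was 0.3049 in the low state (62.6 and 77.5 CPM), against -0.1151 in the G1/S-high state (278 and 257 CPM) and -0.2416 in the G2/M-high state (92.6 and 78.1 CPM). In the both-high state it was 0.01 (583 and 588 CPM, a ratio of 1.01 with an interval of 0.982 to 1.04), a difference within the counting interval. The difference between states was not tested, since each age has 1 library.

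Histone UMIs were also present in the barcodes that the cell filter removed, which the comparisons do not use. These barcodes, 2501 young and 2194 aged, held histone genes at 994.3 CPM in the young and 949.2 CPM in the aged library, against 1698 and 1603 CPM in the kept cells. They held 27.5% and 28.6% of all histone UMIs, and 13.4% and 12.9% of their UMIs were mitochondrially encoded.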

How the results depend on the processing

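No paired analysis was possible because each age has 1 library. The summed log2 ratio aged over young of -0.08 was -0.067 without the 5% deepest cells, -0.0549 without Hist1h1b, -0.102 with median-of-ratios size factors, -0.0648 with states weighted equally and -0.0482 without Hist1h2bc, Hist3h2a and Hist3h2ba, an alternative chosen after seeing the data. The count of genes 1.5-fold higher was 2 with no filter on low values, and the count lower was 3 with no filter on cells or a 20% mitochondrial limit.

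The G1/S-high over low log2 ratio of 2.14 young and 2.28 aged was 1.34 and 1.67 with no filter on cells, 1.39 and 1.72 at the 20% limit, 2.07 and 2.23 without the 5% deepest cells, 1.66 and 1.87 without Hist1h1b, 1.97 and 2.11 thinned to 5000 UMIs, 2.44 and 2.59 cut at the 60th percentile, 2.49 and 2.70 between scanpy's S and G1 calls, and 2.89 and 2.74 without the 3 genes. The counts of genes 2-fold higher were 44 and 44 with no filter on low values. The deepest over shallowest log2 ratio of 0.64 and 0.52 reversed to -0.49 and -0.51 with no filter on cells; it was 0.68 and 0.46 at the 20% limit, 0.77 and 0.68 without the 5% deepest cells, 0.54 and 0.46 without Hist1h1b, and 1.09 and 0.98 when thinned. The causes were not tested. In 36 other recomputed values of the summed and counted results the value did not move by more than its counting interval, or a count by 1.5 times.

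Depth limits the 30 genes under 10 CPM, and the 16 identifiers under 100 UMIs were not described. Mapping among near-identical copies and poly(A) capture cannot be read from the counts, and doublets were not called. Culture and pooling of 5 mice leave the spread between animals unmeasured.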
